A study of Mus musculus with 24 samples.

Results

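The chemokine genes detected in splenic monocytes were examined as a family of 9 genes, Ccl2, Ccl3, Ccl4, Ccl5, Ccl6, Ccl9, Cxcl2, Cxcl10 and Cxcl16. They were picked by name from the 23930 genes of the deposited table, and each had 1 row. Their values were read in 24 libraries, 4 in each of 6 groups formed by 2 monocyte subsets and 3 genotypes. The libraries came from Ly6C hi and Ly6C low CD11b+ spleen cells of untreated mice, which were sorted after exclusion of NK1.1+ and Ly6G+ cells, amplified with a targeted mouse transcriptome panel and sequenced on an Ion Torrent instrument. The genotypes were wild type (WT), Slc29a3-/- and Slc29a3-/- Tlr7-/- mice on the C57BL/6 background. The Slc29a3 allele carried an inserted stop codon in exon 2 and the Tlr7 allele a deletion in exon 5, both made by genome editing in the germline and so present in every cell. The age of the mice used for RNA sequencing was not given in the sources used here. Nothing in the labels says that the 4 libraries of a group came from separate mice, so a P value measures only the spread between libraries, which may be technical.

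Chemokines are small secreted proteins that draw leukocytes along a gradient through receptors on the cell surface. In the mouse, CCL2 mobilises monocytes through CCR2. CCL3, CCL4 and CCL5 attract monocytes, macrophages and T cells, and CCL3 and CCL5 act on CCR1, as do the myeloid chemokines CCL6 and CCL9. CXCL2 recruits neutrophils through CXCR2, CXCL10 is an interferon-induced ligand of CXCR3, and CXCL16 is a membrane-anchored ligand of CXCR6 that the protease ADAM10 sheds. SLC29A3 exports nucleosides from lysosomes, and TLR7 is an endosomal receptor for nucleosides and RNA. The comparison of Slc29a3-/- with WT cells asks what loss of the transporter changes, and the comparison with Slc29a3-/- Tlr7-/- cells asks what of it needs Tlr7.

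Values are reads scaled to a total of 1000000 amplicon reads in each library (RPM). The steps between low values gave 12311129 to 14572058 reads per library, so that 3 reads, the limit that a count of 0 allows for counting error alone, were worth 0.206 to 0.244 RPM. Each gene was read by its own amplicon, and levels were therefore compared between libraries and never between genes. Fold changes were computed as log2(RPM + 1) differences, so the change of a gene with a low level is understated. A gene was called when its fold change was over 1.5 and its limma P value, adjusted over all genes tested by the Benjamini-Hochberg method, was under 0.05.

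The subset labels were checked against the data. Fcgr4, an Fc receptor gene of Ly6C low monocytes, had 26 to 62.5 RPM in the 12 Ly6C hi libraries and 605 to 3020 RPM in the 12 Ly6C low libraries. The study sorted the subsets on Fcgr4 as well as Ly6C, so this split follows the gate. It checks the labels and not the identity or purity of the cells. The Slc29a3 and Tlr7 amplicons were still read in the mutants, with 127 to 413 RPM of Slc29a3 in the 8 mutant Ly6C hi libraries and 355 to 627 RPM of Tlr7 in the 8 mutant Ly6C low libraries, and so did not check the genotypes. WT replicates 1 to 3 of both subsets stood apart from WT replicate 4. They carried barcodes 11 to 16 where the other 18 libraries carried barcodes 24 to 46, had 14237207 to 14572058 reads where the others had 12311129 to 13048425, and had reads of the X-inactivation transcript Xist with none of the Y-linked Ddx3y, a pattern that WT replicate 4 reversed. Both transcripts were read in Slc29a3-/- Tlr7-/- replicate 2 of each subset (299.20 and 425.30 RPM of Xist) and in Ly6C hi replicate 3 (108.70 RPM), and the other mutant libraries had one or the other above 1 RPM. Among Ly6C hi libraries the largest distance between any pair of WT replicates 1 to 3 was 24.3 and the smallest distance from them to WT replicate 4 was 63.7, on the log2(RPM + 1) scale over all genes tested. The corresponding Ly6C low distances were 44.4 and 67.4. For each chemokine gene called against WT, the difference is therefore given with all 4 WT libraries and, where the gene passed the filter, with WT replicate 4 alone. Calls against WT in the other gene lists are given with all 4 WT libraries only. In both, genotype cannot be told apart from what set WT replicates 1 to 3 apart.

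**Figure D1:**
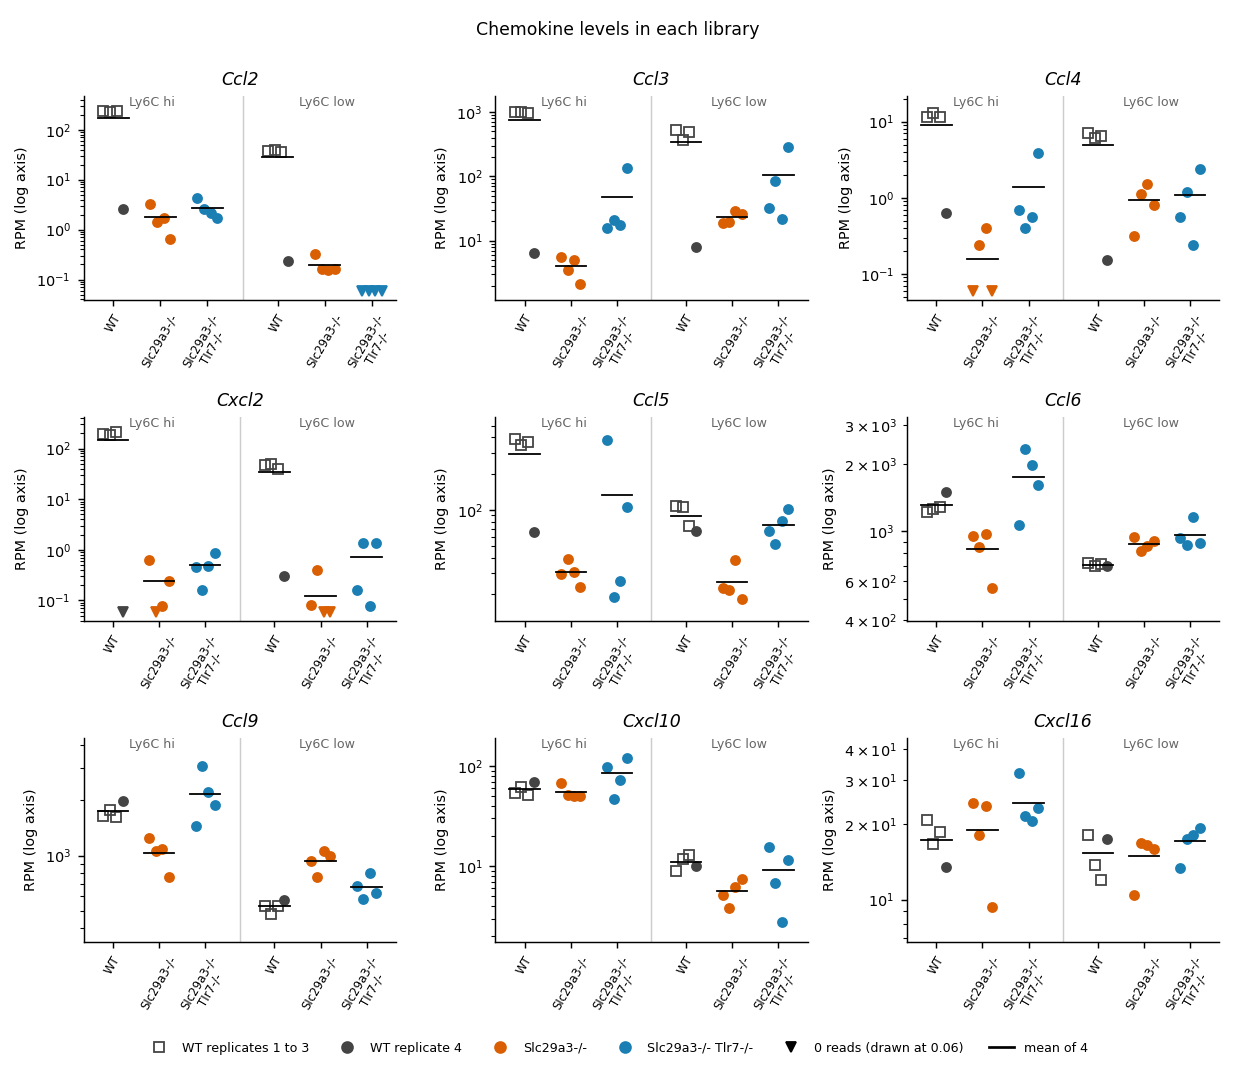
RPM of each of the 9 chemokine genes in all 24 libraries (log axis, 0 reads drawn below the lowest value), by subset and genotype, with replicates 1 to 3 of WT marked apart from the other libraries. In Ccl2, Ccl3, Ccl4 and Cxcl2, WT replicate 4 lies with the mutants and far below the other WT libraries, whereas in Ccl6, Ccl9 and Cxcl10 the 4 WT libraries lie close together.

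Ccl2, Ccl3, Ccl4, Ccl5, Ccl6 and Ccl9 lie in a stretch rich in CC chemokine genes on mouse chromosome 11 (build mm10, GENCODE annotation), where Ccl2 lies at chr11:82035571-82037453, Ccl5 at chr11:83525778-83530518, Ccl9 at chr11:83572919-83578636, Ccl6 at chr11:83587882-83593087, Ccl3 at chr11:83647844-83649355 and Ccl4 at chr11:83662584-83664683. Cxcl16 lies outside that cluster at chr11:70453983-70459984. Cxcl2 lies at chr5:90903871-90905938 and Cxcl10 at chr5:92346638-92348889. All are protein-coding. Promoter windows from RefSeq (build GRCm38.p6) matched 5 of the 9 genes, Ccl3, Ccl6, Ccl9, Cxcl2 and Cxcl10, and not Ccl2, Ccl4, Ccl5 or Cxcl16. The 250 bases before each start were searched on both strands for GGNNTTTCC, a short form of the NF-kB site, for GAAANNGAA, a short form of the interferon response element, for TGANTCA, the AP-1 site, and for TATAAA, the TATA box. These letters were found in 4.93%, 7.13%, 6.75% and 12.4%, respectively, of all 32851 windows, and in 3, 2, 2 and 1 of the 5 chemokine windows. The windows of 4 genes are shown because they carry the matches and because these genes followed different patterns below. The Cxcl2 window held GGNNTTTCC at 96 and 77 bases before the start. Cxcl10 held GAAANNGAA at 213, GGNNTTTCC at 158 and TGANTCA at 74. Ccl9 held TGANTCA at 53 and GGNNTTTCC at 35, beside TATAAA on both strands at 94 and 92, where the matches overlap, and at 224, outside the stretch shown. Ccl3 held GAAANNGAA at 39, and Ccl6 held none of the 4 motifs. A match is a description of the letters and not a measured site. Capitals mark the matches, each sequence runs 5′ to 3′ on the gene's strand, and the windows are chr5:90903779-90903898 (plus strand) for Cxcl2, chr5:92348890-92349139 (minus strand) for Cxcl10, chr11:83578637-83578756 (minus strand) for Ccl9 and chr11:83649379-83649498 (minus strand) for Ccl3.
Cxcl2: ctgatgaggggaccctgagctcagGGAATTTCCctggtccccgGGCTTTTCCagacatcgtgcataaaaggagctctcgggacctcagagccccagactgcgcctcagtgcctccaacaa
Cxcl10: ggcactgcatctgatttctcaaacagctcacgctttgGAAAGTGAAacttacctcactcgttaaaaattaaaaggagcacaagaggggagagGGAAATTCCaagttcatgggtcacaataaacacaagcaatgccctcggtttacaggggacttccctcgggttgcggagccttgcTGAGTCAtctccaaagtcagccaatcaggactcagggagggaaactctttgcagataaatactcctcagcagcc
Ccl9: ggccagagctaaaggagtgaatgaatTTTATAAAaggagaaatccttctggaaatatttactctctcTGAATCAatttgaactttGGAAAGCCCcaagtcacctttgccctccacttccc
Ccl3: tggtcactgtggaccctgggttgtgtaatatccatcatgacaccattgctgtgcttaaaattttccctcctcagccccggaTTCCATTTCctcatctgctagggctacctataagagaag

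In Ly6C hi monocytes of Slc29a3-/- mice, 6 of the 8 chemokine genes tested fell against WT and none rose. They were Ccl2, Ccl3, Ccl4, Ccl5, Ccl6 and Ccl9, and 22.4% of all 10561 genes tested were called in that comparison. The groups did not overlap for 5 of the 8 (Ccl3, Ccl4, Ccl5, Ccl6 and Ccl9), against 33.7% of all genes. The median log2 fold change was -1.76 over the 8 genes and -0.14 over all genes. The 6 genes were of 2 kinds. For Ccl2, Ccl3, Ccl4 and Ccl5, WT replicates 1 to 3 lay 5.57-fold to 156-fold above WT replicate 4 in mean. For Ccl6 and Ccl9, WT replicate 4 lay above them, and their mean was 0.836 and 0.851 of its value. When WT replicate 4 stood alone for WT, 0 of 7 chemokine genes tested were called by limma (2 at an unadjusted P under 0.05), and 1.53% of all genes were. Limma-voom on reads recovered from the RPM steps, added after the data were seen, called 21.1% of all genes and 3 of the 8, Ccl5, Ccl6 and Ccl9, and not Ccl2 (adjusted P = 0.157), Ccl3 (0.0681) or Ccl4 (0.0819).

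Ccl3, a ligand of CCR1, covered a wide range. In WT Ly6C hi monocytes it had 1004, 999, 947 and 6.32 RPM in replicates 1 to 4. Slc29a3-/- cells had 5.49, 3.48, 4.995 and 2.14 RPM, and Slc29a3-/- Tlr7-/- cells 15.6, 21.0, 17.2 and 134.4 RPM. WT replicates 1 to 3 were thus 156-fold above WT replicate 4, which lay just above the Slc29a3-/- libraries and below every Slc29a3-/- Tlr7-/- library. Against WT, Ccl3 fell by 5.90 ± 1.24 (SE) on the log2 scale in Slc29a3-/- cells (adjusted P = 0.00344, limma). The log2 difference from WT replicate 4 alone was -0.60 (adjusted P = 0.779). In Slc29a3-/- Tlr7-/- cells the difference from WT, -3.23 (adjusted P = 0.143), did not pass. It was -5.0 without WT replicate 4 (adjusted P = 8.99e-05) and 2.07 with that replicate alone. Between the mutants, all 4 Slc29a3-/- libraries were below all 4 Slc29a3-/- Tlr7-/- libraries, with a log2 difference of -2.67 ± 1.24 (adjusted P = 0.142). Fitted without any WT library, a setting chosen after the data were seen, the same difference passed the test (adjusted P = 0.00821), since the spread within WT no longer entered the error.

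Among Ly6C low libraries Ccl3 had 524, 362, 483 and 7.97 RPM in WT libraries, 18.8, 19.6, 28.5 and 26.2 RPM in Slc29a3-/- libraries and 32.1, 83.2, 21.8 and 280.8 RPM in Slc29a3-/- Tlr7-/- libraries. Here WT replicate 4 was the lowest of all 12 libraries. Neither mutant passed the test against WT (log2 differences -2.83 and -1.38, adjusted P = 0.151 and 0.404, limma), and against WT replicate 4 alone both differences were positive, at 1.41 and 2.86. Without WT replicate 4 both passed, at -4.24 (adjusted P = 0.00111) and -2.80 (adjusted P = 0.0103).

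Ccl2, the main ligand of CCR2, had 232, 224, 242 and 2.57 RPM in WT Ly6C hi monocytes. It had 3.18, 1.42, 1.74 and 0.635 RPM in Slc29a3-/- libraries and 4.39, 2.60, 2.14 and 1.68 RPM in Slc29a3-/- Tlr7-/- libraries. WT replicate 4 lay within the range of both mutants, and the other WT libraries were 90.5-fold above it. Ccl2 fell by 4.98 ± 1.0 (SE) on the log2 scale in Slc29a3-/- cells (adjusted P = 0.00277, limma). In Slc29a3-/- Tlr7-/- cells it fell by 4.52 ± 1.0 (adjusted P = 0.0455), as 1 of 8 chemokine genes tested, where 1.42% of all genes were called. No chemokine gene was free of overlap between these groups, against 11.8% of all genes. Against WT replicate 4 alone the log2 differences were -0.46 and 0.00. The call in Slc29a3-/- Tlr7-/- cells was lost without any 1 of WT replicates 1, 2 or 3 (adjusted P = 0.182, 0.186 and 0.164) or of Slc29a3-/- Tlr7-/- replicates 2, 3 or 4 (0.0898, 0.0878 and 0.0864). In Ly6C low monocytes Ccl2 had 35.1 to 38.9 RPM in WT replicates 1 to 3, 0.230 RPM in WT replicate 4 and at most 0.318 RPM in Slc29a3-/- libraries, and it had 0 reads in all 4 Slc29a3-/- Tlr7-/- libraries. It did not pass the filter for low values in that subset. Without a filter the log2 difference from WT was -3.76 in Slc29a3-/- (adjusted P = 0.0582, limma) and -4.01 in Slc29a3-/- Tlr7-/- cells (adjusted P = 0.037), and both passed in the model of all 24 libraries (0.0234 and 0.0121). The Slc29a3-/- Tlr7-/- libraries were all at 0, so that their fitted difference depends on the pseudocount and is no bound. Ccl2 was at least 11.2-fold higher in Ly6C hi than in Ly6C low Slc29a3-/- Tlr7-/- cells, counting 3 reads per library as the floor.

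Cxcl2, a neutrophil attractant, had 181 to 215 RPM in Ly6C hi WT replicates 1 to 3 and 0 reads in replicate 4, a difference of at least 845-fold over 3 reads. The 8 mutant Ly6C hi libraries held 0.000 to 0.882 RPM, so that the gene had at least 1 RPM in only 3 libraries of that subset and was not tested there. Without a filter the log2 difference of Slc29a3-/- from WT was -5.44 (adjusted P = 0.023, limma), with the stricter filter on the mean its adjusted P was 0.00674, and in the model of all 24 libraries 0.00157. For Slc29a3-/- Tlr7-/- cells it was -5.16 (adjusted P = 0.0976, 0.0662 and 0.0198). In Ly6C low monocytes WT replicates 1 to 3 had 39.6 to 48.9 RPM and replicate 4 had 0.307 RPM. Slc29a3-/- libraries had 0.000 to 0.400 RPM and Slc29a3-/- Tlr7-/- libraries 0.079 to 1.36 RPM. Cxcl2 fell against WT by 4.09 ± 0.88 in Slc29a3-/- cells (adjusted P = 0.0166, limma) and by 3.54 ± 0.88 in Slc29a3-/- Tlr7-/- cells (adjusted P = 0.0298) on the log2 scale. WT replicate 4 lay among the mutants in both comparisons, and with it alone Cxcl2 did not pass the filter and was not tested. The Slc29a3-/- call was lost without WT replicate 1, 2 or 3 (adjusted P = 0.0655, 0.0737 and 0.07) or Slc29a3-/- replicate 1, 3 or 4 (0.0504, 0.0541 and 0.0545), and the Slc29a3-/- Tlr7-/- call without WT replicate 1, 2 or 3 (0.0893, 0.109 and 0.0976) or its own replicate 3 (0.0779). In the second of them Cxcl2 was the 1 chemokine gene called of 8, where 8.31% of all genes were called.

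Ccl4, a chemokine close to Ccl3, was read at low levels throughout. It had 11.3 to 12.8 RPM in Ly6C hi WT replicates 1 to 3 and 0.624 RPM in replicate 4, against 0.000 to 0.396 RPM in Slc29a3-/- libraries and 0.406 to 3.85 RPM in Slc29a3-/- Tlr7-/- libraries. It fell by 2.74 ± 0.58 in Slc29a3-/- Ly6C hi cells on the log2 scale (adjusted P = 0.00377, limma). With WT replicate 4 alone it did not pass the filter for low values and was not tested, and that library, at 0.624 RPM, lay just above the Slc29a3-/- libraries. In Ly6C low monocytes WT replicates 1 to 3 had 6.04 to 7.20 RPM and replicate 4 had 0.153 RPM, and the 8 mutant libraries had 0.237 to 2.40 RPM. Those differences did not pass (adjusted P = 0.179 for Slc29a3-/- and 0.132 for Slc29a3-/- Tlr7-/-). Without WT replicate 4 they passed, at -2.0 (adjusted P = 0.00231) and -1.96 (adjusted P = 0.00265), and with that replicate alone they were positive, at 0.71 and 0.76 on the log2 scale. In Ly6C hi cells the Slc29a3-/- Tlr7-/- difference from WT was -1.90 (adjusted P = 0.087), and -2.65 without WT replicate 4 (adjusted P = 0.000714).

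Immediate early genes encode transcription factors and phosphatases, such as FOS, EGR1 and DUSP1, that cells induce within minutes of stimulation. Their summed level was lower in WT replicate 4 and the mutants than in WT replicates 1 to 3, as were Ccl2, Ccl3, Ccl4 and Cxcl2. The summed level of 16 immediate early genes in Ly6C hi libraries was 18300, 18230, 18330 and 1996 RPM in WT libraries, 1058 to 1776 RPM in Slc29a3-/- libraries and 2245 to 4867 RPM in Slc29a3-/- Tlr7-/- cells. In Ly6C low libraries it was 21660, 15870, 19890 and 3139 RPM in WT libraries, 3660 to 4378 RPM in Slc29a3-/- libraries and 3577 to 9885 RPM in Slc29a3-/- Tlr7-/- cells. In both subsets WT replicate 4 lay with the mutants or below them, and none of the 16 genes was at 0 in all libraries of a group. In Slc29a3-/- Ly6C hi cells 14 of the 15 immediate early genes tested fell against WT and none rose, and in Ly6C low cells 7 of 14 fell. Of all genes, 22.4% and 4.43% were called in these comparisons, in either direction. These calls include WT replicates 1 to 3, from which genotype cannot be told apart. Between the mutants 0 of 15 and 0 of 14 were called by limma and also by limma-voom, with 3 and 1 at an unadjusted P under 0.05 by the former. There limma called 17.2% and 1.93% of all genes. The part of these genes' induction in the chemokine differences was not tested.

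Among the 18 libraries outside barcodes 11 to 16, Ccl3 and the summed immediate early genes had a Pearson r of 0.913, on log2 values. It was 0.966 over the 8 mutant Ly6C hi libraries and 0.927 over the 8 mutant Ly6C low libraries. Replicate 4 of Slc29a3-/- Tlr7-/- cells had the highest value of both measures among the mutants of each subset. For Ccl2 r was -0.61 over the 18 libraries, and for Cxcl2 0.473, at levels near the floor. Libraries share depth and subset, so these values are descriptions.

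**Figure D2:**
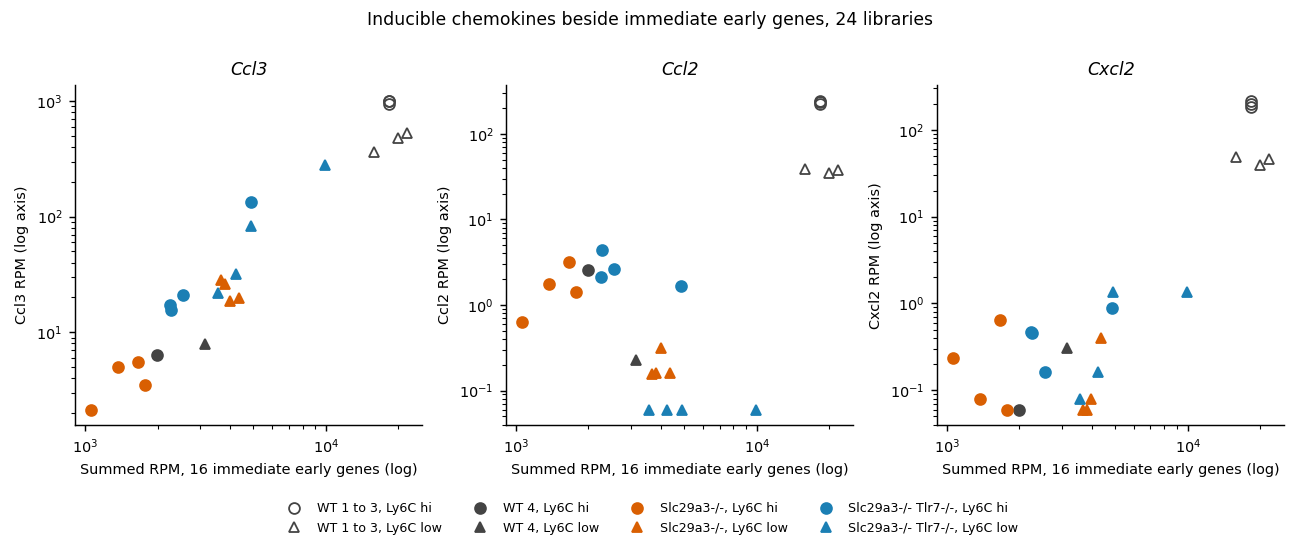
RPM of Ccl3, Ccl2 and Cxcl2 (0 reads drawn below the lowest value) against the summed RPM of 16 immediate early genes in each of the 24 libraries, on log axes, by subset and genotype. WT replicates 1 to 3 form a separate cloud at 15870 to 21660 RPM of the immediate early genes, and among the other 18 libraries Ccl3 follows the sum (r = 0.913) whereas Ccl2 (r = -0.61) and Cxcl2 (r = 0.473) lie near the floor or follow the subset.

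Genes of NF-kB signalling and inflammation showed a smaller step between the same libraries. Their sum over 15 genes was 3110, 3123, 3009 and 971 RPM in WT Ly6C hi libraries, against 705 to 1108 RPM in Slc29a3-/- libraries and 995 to 1552 RPM in Slc29a3-/- Tlr7-/- libraries. In Slc29a3-/- Ly6C hi cells 8 of the 12 tested fell against WT and none rose. In Slc29a3-/- Ly6C low cells Il1b, the gene of interleukin 1 beta, rose while Nlrp3 and Ptgs2 fell, of 14 tested.

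Ccl5, a chemokine of T cells, NK cells and dendritic cells as well as monocytes, was lower in Slc29a3-/- cells of both subsets. Among Ly6C low libraries it had 106.8, 106.4, 73.1 and 66.9 RPM in WT libraries, 22.6, 21.5, 38.6 and 18.2 RPM in Slc29a3-/- libraries and 66.5, 51.9, 81.4 and 101.6 RPM in Slc29a3-/- Tlr7-/- libraries. The Slc29a3-/- libraries lay below all others of the subset, and WT and Slc29a3-/- Tlr7-/- libraries overlapped. Ccl5 fell in Slc29a3-/- Ly6C low cells by 1.79 ± 0.26 on the log2 scale against WT (adjusted P = 0.00122, limma). Against Slc29a3-/- Tlr7-/- cells it fell by 1.56 (95% interval -2.11 to -1.0, adjusted P = 0.00515), as the 1 chemokine gene called of 8. In that comparison 1.93% of all genes were called, and 11.9% did not overlap. Against WT replicate 4 alone the log2 difference was -1.43 (adjusted P = 0.316). In the model of all 24 libraries, whose error also holds the spread of Ly6C hi cells, neither call was kept (adjusted P = 0.0783 and 0.14). The difference between Slc29a3-/- Tlr7-/- and WT Ly6C low cells was -0.24 (95% interval -0.79 to 0.32, adjusted P = 0.562).

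In Ly6C hi monocytes Ccl5 had 391, 345, 369 and 66.1 RPM in WT and 29.5, 38.7, 30.7 and 22.7 RPM in Slc29a3-/- libraries, groups that did not overlap. Slc29a3-/- Tlr7-/- libraries had 384, 18.9, 25.5 and 106.6 RPM, which overlapped both other groups. Ccl5 fell by 2.96 ± 0.76 on the log2 scale in Slc29a3-/- cells against WT (adjusted P = 0.0102, limma). The difference from WT replicate 4 alone was -1.12 (adjusted P = 0.659). The difference between the mutants, -1.15 (adjusted P = 0.307), did not pass. Slc29a3-/- Tlr7-/- cells did not pass against WT either (-1.82, adjusted P = 0.172), and passed without WT replicate 4 (-2.43, adjusted P = 0.0435) or without their replicate 1 (-2.65, adjusted P = 0.0248).

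Markers of other cells moved with Ccl5. The sum of 12 T and NK cell genes, among them Cd3e, Gzma and Ncr1, was 1080, 1028, 1008 and 238.1 RPM in WT Ly6C hi libraries. It was 145.7 to 202.5 RPM in Slc29a3-/- libraries and 1116, 84.4, 85.7 and 206.2 RPM in Slc29a3-/- Tlr7-/- libraries. The libraries with high Ccl5 were those with high T and NK cell genes, with r = 0.957 over the 12 Ly6C hi libraries and 0.897 over the 8 mutants among them. In Ly6C low libraries the T and NK cell sum was 73.4 to 199.3 RPM in WT libraries, 30.8 to 72.3 RPM in Slc29a3-/- libraries and 20.3 to 57.6 RPM in Slc29a3-/- Tlr7-/- cells, and r over the 8 mutants was -0.253. There the sum of 6 conventional dendritic cell genes moved with Ccl5. It was 39.1 to 73.2 RPM in WT libraries, 15.4 to 30.7 RPM in Slc29a3-/- libraries and 42.5 to 72.2 RPM in Slc29a3-/- Tlr7-/- libraries, with r = 0.936 over the 8 mutants. Clec9a, Cd209a, Flt3 and Zbtb46 of these 6 fell in Slc29a3-/- against Slc29a3-/- Tlr7-/- Ly6C low cells. Xcr1 was lower and not called (log2 fold change -0.68, adjusted P = 0.216, limma). Clec10a ran the other way, higher in Slc29a3-/- cells without overlap and not called (0.42, adjusted P = 0.301). In Ly6C hi libraries the same sum was 108.2 to 134.0 RPM in WT, 24.1 to 65.3 RPM in Slc29a3-/- and 113.5 to 136.3 RPM in Slc29a3-/- Tlr7-/- cells, so that it separated Slc29a3-/- cells there too, and r with Ccl5 over the 12 was 0.586. A list of 5 plasmacytoid dendritic cell genes summed to 231.7 to 339.7, 98.5 to 180 and 244.8 to 346.3 RPM in the same groups. Against WT all 6 and all 5 fell in Slc29a3-/- Ly6C hi cells, where 22.4% of all genes were called. Against Slc29a3-/- Tlr7-/- cells 5 and 4 did, where 17.2% were called. No gene of these marker lists was at 0 in all libraries of a group. The part of these cells in the Ccl5 differences was not tested, and in bulk samples fewer cells of a type and less RNA per cell cannot be told apart.

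Ccl6 and Ccl9, neighbouring genes of myeloid CC chemokines, fell in Slc29a3-/- Ly6C hi monocytes and not in Ly6C low monocytes. Ccl6 had 1221, 1261, 1283 and 1501 RPM in WT Ly6C hi libraries. It had 956, 849, 976 and 556 RPM in Slc29a3-/- libraries and 1068, 2337, 1997 and 1617 RPM in Slc29a3-/- Tlr7-/- libraries. Every Slc29a3-/- library was below every library of the other genotypes, and WT replicate 4 lay above the other WT libraries. The means were 1316 ± 126, 834 ± 194 and 1755 ± 544 RPM (SD, n = 4 in each group).

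Ccl9 had 1636, 1779, 1629 and 1976 RPM in WT libraries, 1251, 1055, 1080 and 768 RPM in Slc29a3-/- libraries and 1441, 3071, 2232 and 1879 RPM in Slc29a3-/- Tlr7-/- Ly6C hi libraries. Again all 4 Slc29a3-/- libraries lay below the other 8. The means were 1755 ± 163, 1039 ± 200.6 and 2156 ± 690 RPM (SD, n = 4).

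Against Slc29a3-/- Tlr7-/- cells, Ccl6 fell by 1.05 (95% interval -1.53 to -0.56, adjusted P = 0.00527, limma) and Ccl9 by 1.02 (-1.47 to -0.57, adjusted P = 0.0037) on the log2 scale. They were the 2 chemokine genes called of 8, and 17.2% of all genes were called. Ccl3, Ccl4, Ccl6 and Ccl9 did not overlap between these groups, against 21.3% of all genes. The median log2 fold change was -0.93 over the 8 chemokine genes and -0.12 over all genes. Against WT, Ccl9 fell by 0.77 ± 0.21 (adjusted P = 0.0138) and Ccl6 by 0.69 ± 0.23 (adjusted P = 0.036). The log2 differences from WT replicate 4 alone were of similar size, -0.95 and -0.88, and did not pass (adjusted P = 0.227 and 0.302). The Ccl6 call against WT was lost under TMM scaling (adjusted P = 0.073), without any 1 WT replicate (0.063, 0.0699, 0.0707 and 0.0735 for replicates 1 to 4) and without Slc29a3-/- replicate 2 (0.0579) or 4 (0.11).

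Slc29a3-/- Tlr7-/- Ly6C hi cells did not pass against WT for either gene. The log2 difference was 0.36 for Ccl6 (95% interval -0.13 to 0.85) and 0.25 for Ccl9 (-0.20 to 0.69).

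Ly6C low monocytes differed here, and Ccl9 ran the other way. It had 528, 482, 531 and 573 RPM in WT libraries, 936, 766, 1052 and 991 RPM in Slc29a3-/- libraries and 684, 576, 806 and 623 RPM in Slc29a3-/- Tlr7-/- libraries. Both mutants lay above all WT libraries. Ccl9 rose by 0.82 ± 0.15 on the log2 scale in Slc29a3-/- cells against WT (adjusted P = 0.00582, limma) and was the 1 chemokine gene that rose in any comparison. There 3 of 8 chemokine genes were called, against 4.43% of all genes, with a median log2 fold change of -1.10 against 0.00 over all genes. It was 0.70 above WT replicate 4 alone on the log2 scale (adjusted P = 0.419). Between the mutants the difference, 0.48 (95% interval 0.17 to 0.79, adjusted P = 0.12), did not pass.

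Ccl6 in Ly6C low monocytes had 698 to 721 RPM in WT libraries, 816 to 946 RPM in Slc29a3-/- libraries and 874 to 1160 RPM in Slc29a3-/- Tlr7-/- libraries. Both mutants lay above all WT libraries, by 0.31 (adjusted P = 0.18, limma) and 0.43 (adjusted P = 0.0488) on the log2 scale, the second a 1.35-fold difference under the fold threshold. Ccl5, Ccl6, Ccl9 and Cxcl10 were the 4 of 8 chemokine genes whose Slc29a3-/- and WT Ly6C low libraries did not overlap, against 17.7% of all genes. For Slc29a3-/- Tlr7-/- cells Ccl6 and Ccl9 were the 2 of 8, against 12.3%. Red pulp macrophage genes, a list of 8, summed to 600 to 667 RPM in WT libraries, 879 to 1336 RPM in Slc29a3-/- libraries and 534 to 1650 RPM in Slc29a3-/- Tlr7-/- Ly6C low libraries, with no gene at 0 in all libraries of WT or Slc29a3-/- cells, and their part in the Ccl9 difference was not tested.

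The difference between the subsets was tested directly in the model of all 24 libraries. The effect of Slc29a3-/- against WT was lower in Ly6C hi than in Ly6C low cells by 1.59 ± 0.26 for Ccl9 (adjusted P = 0.000421, limma) and by 1.0 ± 0.27 for Ccl6 (adjusted P = 0.019) on the log2 scale. Against Slc29a3-/- Tlr7-/- cells the corresponding log2 differences were -1.50 ± 0.26 for Ccl9 (adjusted P = 0.000919) and -0.93 ± 0.27 for Ccl6 (adjusted P = 0.0311). These were the 2 chemokine genes called of 9 in each test, where 8.76% and 8.94% of all genes were called. The 2 tests share the Slc29a3-/- libraries. When WT replicate 4 of each subset stood alone for WT, the first test gave -1.65 for Ccl9 (adjusted P = 0.14) and -1.21 for Ccl6 (adjusted P = 0.347). The Ccl6 call against Slc29a3-/- Tlr7-/- cells was lost under TMM scaling (adjusted P = 0.0801), without Ly6C hi Slc29a3-/- replicate 4 (0.0797), without Ly6C hi Slc29a3-/- Tlr7-/- replicate 2 or 3 (0.0568 and 0.0722) and without Ly6C low Slc29a3-/- replicate 1, 3 or 4 (0.0585, 0.0514 and 0.059).

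**Figure D3:**
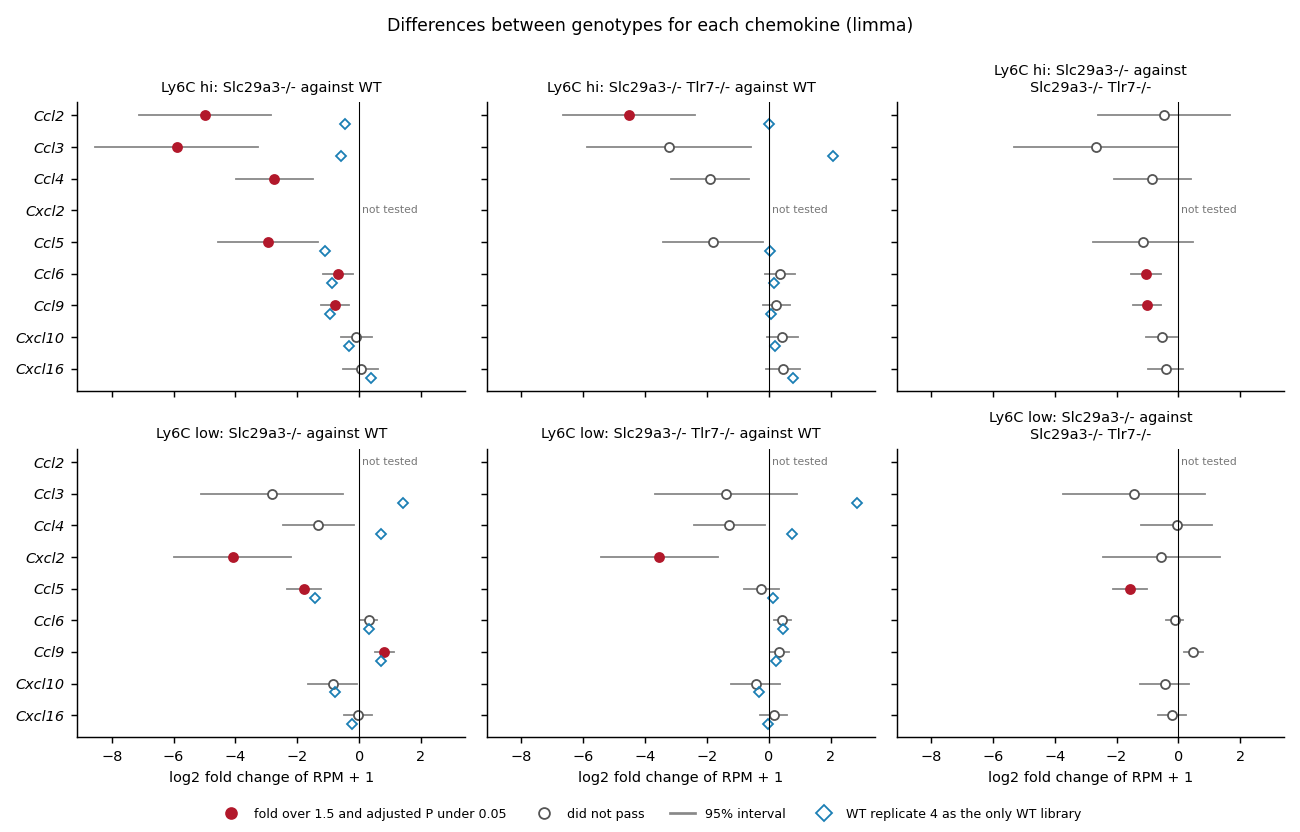
Log2 fold change of each chemokine gene, with its 95% interval, in the comparisons of genotypes within Ly6C hi and Ly6C low monocytes. Filled points were called. In Slc29a3-/- Ly6C hi cells Ccl6 and Ccl9 are negative against both other genotypes with narrow intervals, Ccl9 is positive against WT in Ly6C low cells, and the intervals of Ccl2, Ccl3 and Cxcl2 are wide.

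Neutrophil genes moved opposite to Ccl6 and Ccl9 in Ly6C hi cells. The sum of 12 of them, among them S100a8, Ngp and Ltf, was 34230, 32890, 31930 and 25040 RPM in WT libraries. It was 76820, 89300, 83650 and 142000 RPM in Slc29a3-/- libraries and 36960, 13730, 13780 and 40900 RPM in Slc29a3-/- Tlr7-/- libraries. In Slc29a3-/- cells 9 of the 12 rose and 1 fell against Slc29a3-/- Tlr7-/- cells, where 17.2% of all genes were called. None of the 12 was at 0 in all Ly6C hi libraries of a group. Against WT, Camp, Lcn2, Ltf, Ly6g, Ngp, S100a8 and S100a9 rose, and Mmp9, Csf3r and Cxcr2 were not called. Retnlg and Mmp8 fell there, with log2 fold changes of -2.11 (adjusted P = 0.0228, limma) and -1.07 (adjusted P = 0.0172). The 8 granulocyte-monocyte progenitor genes summed to 372 to 471 RPM in WT libraries, 876 to 2905 RPM in Slc29a3-/- libraries and 387 to 958 RPM in Slc29a3-/- Tlr7-/- cells. Of these, Mpo, Elane, Prtn3, Ctsg and Ms4a3 rose in Slc29a3-/- cells against both other genotypes, and Cd34 and Kit were not called. Flt3, which is also in the conventional dendritic cell list, fell against both (log2 fold changes -1.57 against WT and -1.43 against Slc29a3-/- Tlr7-/- cells). The 2 dendritic cell lists, given beside Ccl5, were lower in the same Slc29a3-/- libraries, and their part in the Ccl6 and Ccl9 differences was not tested. A list of 6 Ly6C hi monocyte genes, which shares Mmp8 with the neutrophil list, summed to 4420, 5026, 4441 and 9377 RPM in WT libraries. It summed to 4655, 3730, 3703 and 3243 RPM in Slc29a3-/- and 4644, 7506, 8216 and 5516 RPM in Slc29a3-/- Tlr7-/- libraries. Only Fn1 and Mmp8 of that list fell in Slc29a3-/- cells against both, and its part was not tested either. Over the 12 Ly6C hi libraries, r with the neutrophil sum was -0.939 for Ccl6 and -0.958 for Ccl9. It was -0.842 and -0.847 over the 8 libraries that were not Slc29a3-/- alone. The library with the highest neutrophil sum, Slc29a3-/- replicate 4, had the lowest Ccl6 and Ccl9 of the subset, and Slc29a3-/- Tlr7-/- replicates 2 and 3, with the lowest sums, had the highest.

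Both genes were refitted in 2 ways that were chosen after the data were seen. With RPM rescaled to the total outside the neutrophil and progenitor genes, Ccl6 and Ccl9 still fell against Slc29a3-/- Tlr7-/- Ly6C hi cells, by 0.94 (adjusted P = 0.0074) and 0.91 (adjusted P = 0.00497) on the log2 scale. Against WT, Ccl9 fell by 0.67 (adjusted P = 0.0214) and Ccl6 lost its call at -0.58 (adjusted P = 0.0575). With the neutrophil sum as a covariate, the log2 differences against Slc29a3-/- Tlr7-/- cells were 0.06 for Ccl6 (adjusted P = 0.975) and -0.02 for Ccl9 (adjusted P = 0.99). Against WT they were 0.20 and 0.02. The sums of Slc29a3-/- libraries did not overlap those of the other genotypes, so that genotype and neutrophil sum cannot be told apart in this fit. In Ly6C low libraries the neutrophil sum was 150 to 2606 RPM.

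**Figure D4:**
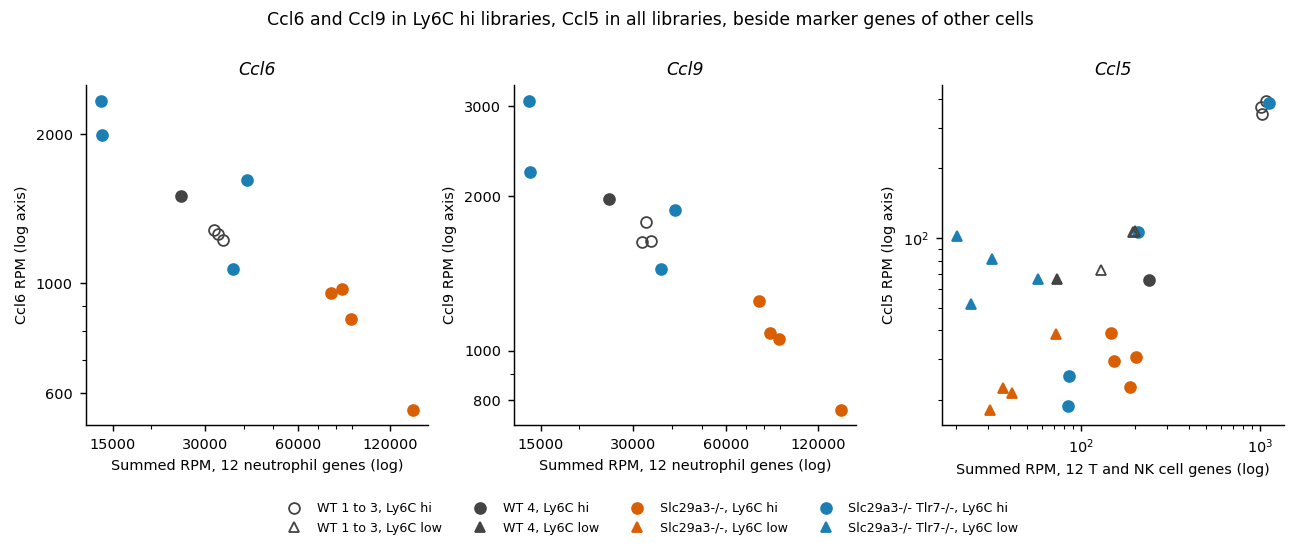
RPM of Ccl6 and Ccl9 against the summed RPM of 12 neutrophil genes in the 12 Ly6C hi libraries, and of Ccl5 against the summed RPM of 12 T and NK cell genes in all 24 libraries, on log axes. Ccl6 and Ccl9 decline with the neutrophil sum over the 12 Ly6C hi libraries of all genotypes together (r = -0.939 and -0.958), and the Ly6C hi libraries with Ccl5 above 300 RPM are those with over 1000 RPM of T and NK cell genes.

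Cxcl10, the interferon-induced ligand of CXCR3, followed the subset more than the genotype. In Ly6C hi monocytes it had 53.6, 61.7, 51.0 and 68.8 RPM in WT libraries, 67.2, 51.6, 49.8 and 50.7 RPM in Slc29a3-/- libraries and 97.8, 46.6, 72.5 and 121.6 RPM in Slc29a3-/- Tlr7-/- libraries. The 3 groups overlapped. In Ly6C low monocytes it had 9.02, 11.9, 12.9 and 10.1 RPM in WT libraries, 5.17, 3.84, 6.23 and 7.47 RPM in Slc29a3-/- libraries and 15.7, 6.75, 2.76 and 11.6 RPM in Slc29a3-/- Tlr7-/- libraries. Every Ly6C low library was below every Ly6C hi library. From Ly6C hi to Ly6C low cells, Cxcl10 had log2 fold changes of -2.32 ± 0.32 in WT (adjusted P = 4.15e-06, limma), -3.08 ± 0.32 in Slc29a3-/- (adjusted P = 2.36e-08) and -3.19 ± 0.32 in Slc29a3-/- Tlr7-/- cells (adjusted P = 2.8e-08).

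No genotype comparison of Cxcl10 passed with all libraries. The widest was -0.86 in Slc29a3-/- against WT Ly6C low cells, whose libraries did not overlap (95% interval -1.66 to -0.07, adjusted P = 0.207), and it was -0.77 from WT replicate 4 alone. In Ly6C hi cells the Slc29a3-/- difference from WT was -0.10 (95% interval -0.60 to 0.40) and 0.03 under TMM scaling. The difference between the Ly6C hi mutants, -0.54 (adjusted P = 0.115), passed without Slc29a3-/- Tlr7-/- replicate 2 (-0.80, adjusted P = 0.00829). A list of 9 other interferon-stimulated genes summed to 555 to 584 RPM in WT libraries, 303 to 564 RPM in Slc29a3-/- libraries and 661 to 998 RPM in Slc29a3-/- Tlr7-/- Ly6C hi libraries. Of these, Irf7, Ifit1, Mx1 and Rsad2 fell and Ifit2 rose in Slc29a3-/- against Slc29a3-/- Tlr7-/- Ly6C hi cells. From Ly6C hi to Ly6C low cells 8, 7 and 8 of the 9 fell in WT, Slc29a3-/- and Slc29a3-/- Tlr7-/- cells. Within a subset, r between Cxcl10 and their sum was 0.658 over the 12 Ly6C hi and 0.299 over the 12 Ly6C low libraries, and it was 0.824 over the 18 libraries outside barcodes 11 to 16, which pool subsets of different level.

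Cxcl16, the membrane-anchored ligand of CXCR6, was called in no comparison. Its means in Ly6C hi monocytes were 17.4 ± 3.07 RPM in WT libraries, 18.9 ± 6.96 RPM in Slc29a3-/- libraries and 24.4 ± 5.22 RPM in Slc29a3-/- Tlr7-/- cells (SD, n = 4). In Ly6C low monocytes they were 15.3 ± 2.92, 14.9 ± 3.02 and 17.1 ± 2.62 RPM. The 24 libraries ranged from 9.37 to 32 RPM. The intervals allow differences between Slc29a3-/- and WT of -0.51 to 0.61 in Ly6C hi and -0.49 to 0.41 in Ly6C low cells on the log2 scale. Adam10, which encodes its sheddase, had group means of 110 to 170 RPM.

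Within a genotype, the subsets differed for 3 of 9 chemokine genes in WT, 1 in Slc29a3-/- and 3 in Slc29a3-/- Tlr7-/- cells, all lower in Ly6C low cells, against 25.9%, 35% and 28.3% of all 11042 genes tested. The labels do not say whether same-numbered libraries of the subsets came from the same mouse. In an alternative fit of all 24 libraries, same-numbered libraries of each genotype were blocked as pairs. There 7 of 9 chemokine genes and 26.2% of all genes were called in WT. The 4 added were Ccl2 (adjusted P = 4.55e-06), Ccl4 (0.0234), Ccl5 (0.0396) and Cxcl2 (0.00722), all lower in Ly6C low cells. Besides Cxcl10, the genes called without the block were Ccl9 in WT (log2 fold change -1.73 ± 0.18, adjusted P = 7.28e-08, limma) and Slc29a3-/- Tlr7-/- cells (-1.64 ± 0.18, adjusted P = 1.31e-07), and Ccl6 in the same genotypes (-0.89 and -0.82, adjusted P = 0.000736 and 0.00156). In Slc29a3-/- cells Ccl9 and Ccl6 had log2 differences of -0.14 (adjusted P = 0.585) and 0.11 (adjusted P = 0.677). The subsets of WT did not overlap for Ccl6, Ccl9 and Cxcl10, against 33.8% of all genes. Those of Slc29a3-/- cells did not overlap for Ccl2 and Cxcl10, lower in Ly6C low cells, and for Ccl3, higher there, against 48.7%. Those of Slc29a3-/- Tlr7-/- cells did not overlap for Ccl2, Ccl9, Cxcl10 and Cxcl16, all lower in Ly6C low cells, against 24.7%. Without Ly6C hi WT replicate 4, Ccl2 (-3.86, adjusted P = 0.000238), Ccl4 (-1.45, 0.0369), Ccl5 (-2.08, 0.00978) and Cxcl2 (-3.39, 0.00128) were also lower in Ly6C low than in Ly6C hi WT cells, and the difference between subsets of the Slc29a3-/- effect was called for Ccl3 (-4.84, 0.0263) and Cxcl2 (-3.26, 0.0494). The wide spread within WT entered the test of Ccl3 in Slc29a3-/- cells, whose log2 difference was 2.31 (adjusted P = 0.155, and 0.0104 when fitted without any WT library).

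The rest of the chemokine system was read from 2 further lists. Of 26 other chemokine ligand genes in the table, only 7 passed the filter in Ly6C hi and 6 in Ly6C low libraries, and the 26 together summed to 16.1 to 114.4 RPM per library. Ccl24 and Xcl1 fell in Slc29a3-/- Ly6C hi cells against WT, and Xcl1, a product of T and NK cells, fell in Ly6C low cells of both mutants. None was called between the mutants in either subset by limma or limma-voom, with 2 in Ly6C hi and 0 in Ly6C low cells at an unadjusted P under 0.05 by limma. Of 11 receptors and sheddases of the 9 chemokines, Ccr3, Ccrl2, Cxcr3 and Cxcr6 fell in Slc29a3-/- Ly6C hi cells against WT, of 10 tested, where 22.4% of all genes were called. In Ly6C low cells Ccr3 fell in Slc29a3-/- cells by 2.40 against WT on the log2 scale. Against Slc29a3-/- Tlr7-/- Ly6C low cells it fell by 1.97 (adjusted P = 0.00564, limma), where 1.93% of all genes were called. Ccrl2 fell against WT in Ly6C low cells of both mutants. Cxcr3, the receptor of CXCL10, had 2.96 to 10.1 RPM in WT libraries, 0.714 to 2.13 RPM in Slc29a3-/- libraries and 3.33 to 5.28 RPM in Slc29a3-/- Tlr7-/- Ly6C hi libraries. It fell in Slc29a3-/- cells by 1.90 (adjusted P = 0.00103, limma) against WT and by 1.21 (adjusted P = 0.0164) against Slc29a3-/- Tlr7-/- cells on the log2 scale. The calls of these 2 lists against WT include WT replicates 1 to 3, from which genotype cannot be told apart. Cxcr2, the receptor of CXCL2, rose by 2.0 (adjusted P = 0.00171) in the latter comparison and is itself one of the 12 neutrophil genes. Ccr2, the receptor of CCL2, fell from Ly6C hi to Ly6C low WT cells by 3.54 and Ccr1 by 3.18, and in Ly6C hi WT libraries Ccr2 had a mean of 374 RPM in replicates 1 to 3 and 1783 RPM in replicate 4.

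The genes most like each chemokine gene across libraries were ranked by Pearson r on log2(RPM + 1) over 7491 genes with a mean of at least 10 RPM. They are descriptions, since libraries share subset, genotype and depth. Over all 24 libraries, Ccl2 was nearest to Fosb (r = 0.962) and Cxcl2 also to Fosb (0.974), an immediate early gene, and Ccl3 to Ppp1r15a (0.968), a stress-response gene. Without barcodes 11 to 16, over 18 libraries, Ccl3 stayed nearest to Ppp1r15a (0.931), whereas Ccl2 was nearest to Clec10a (0.946) and Cxcl2 to the heat shock gene Hspa1a (0.771). Ccl5 was nearest to Gzmb (0.859), a cytotoxic granule gene, over 24 libraries and to the MHC class II gene H2-Eb1 (0.72) over 18. Ccl6 was nearest to the Fc receptor gene Fcgr3 in both (0.886 and 0.9). Ccl9 was nearest to Fam102b (0.909) and then to Mpeg1 (0.897). Cxcl10 was nearest to F13a1 (0.953), a gene of Ly6C hi monocytes, and to Stx3 (0.95). Cxcl16 had no close match, with Mtmr14 at 0.733 and Mrpl2 at 0.79. Ccl4 had a mean under 10 RPM and was not ranked. Among the 9 genes over 18 libraries, the closest pairs were Ccl2 with Cxcl10 (r = 0.877), Ccl6 with Ccl9 (r = 0.861) and Ccl3 with Ccl4 (r = 0.841).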

How the data were processed

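RNA of 24 libraries was amplified by the study with a targeted mouse panel (1 amplicon per gene) and sequenced on an Ion Torrent instrument, and reads were mapped to mm10. The deposited table holds RPM values made by the authors, reads per amplicon scaled to 1000000 per library, with 0 reads written as 0.0001 (set to 0 here). Which software step wrote the table is not given in the sources used here. All table columns had a sample (0 without). Gene names that a spreadsheet had turned into dates were restored for 27 rows. A targeted panel reads 1 stretch of a transcript, so a change outside it is not seen.

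RPM are not counts, so limma 3.58.1 (R 4.3.3) was fitted to log2(RPM + 1) of genes that reached 1 RPM in 4 or more libraries of the fit, with group means and a trended variance. Genotypes were compared within the 12 libraries of a subset, and subsets and the difference between subsets within all 24. P values were adjusted over all genes tested. The steps between values below 5 RPM came out as whole reads, within 0.1 of a read, for 100.0% of such values in every library. Replicate numbers come from the sample titles. Across subsets, the deviations of same-numbered WT libraries from their group means had correlations of 0.259 to 0.619. WT replicates 1 to 3 share their distance from replicate 4, so these correlations cannot show that a number marks a pair. The fit with a block paired same-numbered libraries of all 3 genotypes and is an alternative. The fits were tested on simulated data. The 9 genes, the marker lists and the tests were chosen with earlier results of these data known. The genes named are the 9 chemokine genes, the called genes of each list where few, and the nearest genes by Pearson r. Tables were handled in Python 3.11.15. Other scalings, filters, pseudocounts, blocks and left-out libraries were tried as alternatives. Isg15 and Ly6c2 were not analysed here.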

Additional observations from a re-analysis of the deposited data

Results flagged for a closer look

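Of 48 groups of 4 libraries with levels that could be checked, 11 held a library far from the other 3, where chance would flag about 1 in 20 groups by the construction of the test. The groups are not independent, since the genes share libraries. In Ly6C hi WT, replicate 4 was the lowest for Ccl2 (2.574 RPM), Ccl3 (6.318 RPM), Ccl4 (0.624 RPM), Ccl5 (66.14 RPM) and Cxcl2 (0.0 RPM), and in Ly6C low WT replicate 4 was the lowest for Ccl2 (0.23 RPM) and Ccl4 (0.153 RPM). These 7 come from 2 libraries, and the same libraries differed from WT replicates 1 to 3 in barcode range, depth and sex-linked genes. In Slc29a3-/- Tlr7-/- Ly6C hi cells, replicate 4 was the highest for Ccl3 (134.4 RPM) and Ccl4 (3.849 RPM). In Slc29a3-/- cells, replicate 1 was the highest of its Ly6C hi group for Cxcl10 (67.19 RPM) and the lowest of its Ly6C low group for Cxcl16 (10.42 RPM).

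Slc29a3-/- had a different effect in the 2 subsets for Ccl9 and Ccl6, by the test of that difference. Subtracting the Ly6C low effect from the Ly6C hi effect gave -1.590 for Ccl9 and -1.0 for Ccl6 on the log2 scale against WT, and -1.498 and -0.927 against Slc29a3-/- Tlr7-/- cells.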

How the results depend on the processing

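Of 1671 refitted values of single chemokine genes and counts, 1523 kept their direction and side of the threshold, 61 lost a call, 32 gained one and 55 changed sign. Leaving out 1 library at a time, the number of chemokine genes called in Ly6C hi cells was 4 to 6 (Slc29a3-/- against WT), 0 to 4 (Slc29a3-/- Tlr7-/- against WT) and 2 to 3 (between the mutants). In Ly6C low cells it was 2 to 5, 0 to 3 and 1. Between subsets it was 3 to 7 in WT, 1 in Slc29a3-/- and 3 in Slc29a3-/- Tlr7-/- cells, and for the difference between subsets 2 to 4 against WT and 1 to 2 against Slc29a3-/- Tlr7-/- cells. The highest counts against WT came without WT replicate 4. The share of all genes called is not set beside the counts of this and the next paragraph. They therefore describe the fits and are no result about the chemokine genes.

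When WT replicate 4 stood alone for WT, which leaves a group of 1 whose spread is taken from the other groups, 0 were called in any comparison of a mutant with WT and 0 in the difference between subsets, of 7 or 8 tested, with 1 or 2 of them at an unadjusted P under 0.05 in each. Signs then changed for Ccl3 (2.07 and 2.86 in Slc29a3-/- Tlr7-/- Ly6C hi and low, 1.41 in Slc29a3-/- low), Ccl2 (0.00 in Slc29a3-/- Tlr7-/- Ly6C hi), Ccl5 (0.027 and 0.13 in Slc29a3-/- Tlr7-/- Ly6C hi and low), Ccl4 (0.71 and 0.76) and Cxcl16 (-0.037 in Slc29a3-/- Tlr7-/- low). They also changed between the WT subsets for Ccl3 (0.29), Ccl5 (0.016) and Cxcl16 (0.34), and for Ccl5 in the difference between subsets (0.31). The 2 calls lost without a filter or under a stricter one, with a pseudocount of 0.1 and with limma-voom were those of Slc29a3-/- Tlr7-/- against WT: 0 in Ly6C hi under each of the 4, and 0 in Ly6C low under the last 2. The model of all 24 libraries called 2 in each of these and 0 between the mutants in Ly6C low cells. The difference between subsets against Slc29a3-/- Tlr7-/- cells kept 1 call under TMM scaling, with no filter and without any WT library. Limma-voom and the neutrophil covariate each called 3 in Slc29a3-/- against WT Ly6C hi cells, the covariate called 0 in the other 2 Ly6C hi comparisons, and 3 were called between Slc29a3-/- subsets without any WT library. Limma-voom on recovered reads, the fits without any WT library, the rescaling and the covariate were added after seeing the data. The edgeR and DESeq2 alternatives were not run, since the table holds RPM.

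Signs also changed for Cxcl10 under TMM scaling (0.032 in Slc29a3-/- against WT Ly6C hi, 0.081 in the difference between subsets against Slc29a3-/- Tlr7-/- cells) and the rescaling (0.005 and 0.004). Others were Ccl4 between the Ly6C low mutants (0.003 with a pseudocount of 0.1, 0.024 with limma-voom), Cxcl2 between Slc29a3-/- Tlr7-/- subsets (-0.017 with limma-voom), Ccl6 between Slc29a3-/- subsets (-0.041 with the rescaling), and with the covariate Ccl9 (0.02) and Ccl6 (0.20) in Slc29a3-/- against WT and Ccl6 (0.063) between the mutants. The cause of these was not tested, and all were differences that had not passed or lost their call. Leaving out 1 library changed the sign of Cxcl16 (-0.10 to 0.34 and -0.14 to 0.11 in Slc29a3-/- against WT Ly6C hi and low, -0.062 to 0.38 and -0.37 to 0.07 in the differences between subsets), Cxcl2 (-0.25 to 0.01 and -0.04 to 0.34 between subsets of the mutants), Ccl6 (-0.073 to 0.20 between Slc29a3-/- subsets), Ccl5 (-0.48 to 0.95 and -0.18 to 1.24), Ccl4 (-0.35 to 0.33 and -0.27 to 0.22), Cxcl10 (-0.41 to 0.31), Ccl3 between WT subsets (-2.54 to 0.65) and Ccl2 in the difference between subsets against WT (-2.74 to 0.009).

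TMM scaling moved the median of all genes in Slc29a3-/- Ly6C hi cells from -0.14 to -0.02 against WT and from -0.12 to -0.01 against Slc29a3-/- Tlr7-/- cells. It moved the split of higher and lower calls from 861 and 1507 to 1186 and 1146 against WT, and from 951 and 868 to 1134 and 572 between the mutants. For the differences between subsets the medians moved from -0.15 to 0.00 and from -0.20 to -0.03, and the split from 454 and 513 to 639 and 373, and from 500 and 487 to 686 and 287. Across subsets, same-numbered libraries had correlations of -0.081 to 0.255 in Slc29a3-/- and -0.456 to 0.338 in Slc29a3-/- Tlr7-/- cells. In no genotype did every library correlate best with its own number, and WT replicates 2 and 3 correlated best with numbers 3 and 1. Pairs are therefore not established, and the block, fitted to all genotypes, is an alternative. With the replicate block, 7, 4 and 5 chemokine genes were called between the subsets of WT, Slc29a3-/- and Slc29a3-/- Tlr7-/- cells, beside 26.2%, 35.2% and 28.6% of all genes, and 5 in the difference between subsets against WT, beside 9.32%. Levels under about 0.24 RPM cannot be told from 0 at this depth.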
